A study of Mus musculus with 36 samples.

Results

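The 10 genes described here build and mark smooth muscle: Acta2, Actg2, Myh11, Cnn1, Tagln, Smtn, Lmod1, Des, Synm and Myocd. They were chosen by symbol, matched to the Ensembl identifiers of the gene tables, and all 10 were found among the 52636 genes listed in each library. RNA sequencing had been done on 36 mouse libraries in 12 groups of 3, of which 30 were intestines at E18.5, shortly before birth, and 6 were cultures of mouse embryonic fibroblasts (MEFs). The labels call the 3 libraries of each group biological replicates. The alleles act on Casp8, the protease that starts extrinsic apoptosis, and on its partners: D387A changes a site at which Casp8 is cut, C362A replaces its catalytic cysteine, Cflar encodes the Casp8 partner cFLIP, Fadd the adaptor that recruits Casp8, Mlkl the executioner of necroptosis, Casp1 an inflammatory caspase, and Ifnar1 a chain of the type I interferon receptor. The first set of intestines held Mlkl-/- controls, Casp8 D387A/D387A embryos, Casp8 D387A/D387A Cflar-/- Mlkl-/- embryos (D387A Cflar Mlkl), and this last genotype with loss of Casp1 (Casp1-/-), of Casp1 and Ifnar1 (Casp1-/- Ifnar1-/-) or of Casp1 and Fadd (Casp1-/- Fadd-/-). A second set, with Mlkl-/- controls of its own, paired Casp8 C362A/C362A with Mlkl-/- alone (C362A Mlkl), with Mlkl-/- and Casp1-/- (C362A Mlkl Casp1), or with Cflar-/- and Mlkl-/- (C362A Cflar Mlkl). One group of MEFs was Mlkl-/- and the other D387A Cflar Mlkl. Every group lacked Mlkl except the Casp8 D387A/D387A embryos, so their comparison with the controls also contains the difference in Mlkl. The alleles were constitutive rather than limited to muscle, the Mlkl and Cflar deletions of the D387A line came from 1 mosaic founder, the C362A line carried another, smaller Cflar deletion made on an existing Mlkl-/- background, and no Mlkl-/- Casp1-/- control with normal Casp8 was analysed here. No treatment was given.

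Smooth muscle forms the circular and longitudinal coats of the intestine and the walls of its arteries, and it moves the gut contents by slow contraction. It differentiates before birth from mesenchyme that receives hedgehog signals from the epithelium, and the transcription factor SRF, with its coactivator myocardin, switches on contractile genes through DNA elements called CArG boxes. Contraction needs actin filaments, a myosin of smooth muscle, proteins that bind the filaments, and a scaffold of desmin intermediate filaments. Several of these genes, Acta2 and Tagln among them, are also expressed in vascular mural cells and in cultured fibroblasts.

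Actin and myosin were represented by Acta2, the alpha actin of smooth muscle (ENSMUSG00000035783, chr19:34241090-34255590, minus strand, genome build GRCm38 throughout), Actg2, the gamma actin of enteric smooth muscle (ENSMUSG00000059430, chr6:83512905-83536265, minus strand), and Myh11, the smooth muscle myosin heavy chain (ENSMUSG00000018830, chr16:14194535-14291372, minus strand). Proteins that bind actin filaments were calponin, from Cnn1 (ENSMUSG00000001349, chr9:22099216-22109630, plus strand), transgelin, from Tagln (ENSMUSG00000032085, chr9:45929619-45936058, minus strand), smoothelin, from Smtn (ENSMUSG00000020439, chr11:3517523-3540612, minus strand), and leiomodin, which nucleates filaments, from Lmod1 (ENSMUSG00000048096, chr1:135324807-135368065, plus strand). The intermediate filament proteins were desmin, from Des (ENSMUSG00000026208, chr1:75360329-75368579, plus strand), and synemin, from Synm (ENSMUSG00000030554, chr7:67730160-67759742, minus strand). Myocardin is encoded by Myocd (ENSMUSG00000020542, chr11:65176561-65269989, minus strand). Few stretches of 50 bases, the length of a read, were shared between the muscle genes and their relatives: 7 of 2146 in Acta2 transcripts, 0 of 1592 in Actg2 and 26 of 7644 in Myh11 also occurred in transcripts of another gene. Overlap with genes on the opposite strand was larger for Tagln, where 62.4% of exon bases lay under the antisense gene Gm48529, and for Smtn, where 16.3% lay under Gm11946. Gm48529 had 0.297% to 2.95% as many reads as Tagln in the same library, and Gm11946 had 0.0279% to 21.8% as many as Smtn. Smaller overlaps joined Tagln to Pcsk7 (5.43% of exon bases, 2.34% to 26.8% as many reads) and Synm to Ttc23 (1.06% of exon bases, 11.4% to 212% as many reads). The sources disagree on whether the libraries kept the strand, so reads of such a pair may not be told apart.

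Promoter sequences from RefSeq (GRCm38.p6, 250 bases before to 50 after the start) were at hand for 6 of the 10 genes: Acta2, Cnn1, Smtn, Lmod1, Des and Synm. They were searched on both strands for the CArG box, which is CC, then 6 letters that are each A or T, then GG. The exact box was in 0 of the 6, against 488 of 27025 genes (1.81%). With 1 of the inner letters left free, Acta2 held 2 matches and Synm 1, against 11.3% of all genes with a match. The MCAT element CATTCC, a site for TEAD factors, occurred in Acta2, Lmod1 and Smtn, against 16.6% of all genes. The CArG-like matches are shown because SRF and myocardin act through such boxes. They are in capitals, with 10 bases on either side and their first base numbered from the start. They come from chr19:34255438-34255467 and chr19:34255388-34255417 for Acta2 and from chr7:67759962-67759991 for Synm, all on the minus strand. Both Acta2 stretches lie within the gene span given above, since the RefSeq start used here is inside that span. For Des, which moved furthest in D387A Cflar Mlkl intestines, the 120 bases before the start are shown in lower case (chr1:75360172-75360291, plus strand), with no match to either box or to the MCAT letters.
Acta2, match from position -84: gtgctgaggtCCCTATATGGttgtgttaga
Acta2, match from position -34: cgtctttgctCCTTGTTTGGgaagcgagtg
Synm, match from position -239: caacggggagCCTCATAAGGtgtcccagat
Des, upstream stretch: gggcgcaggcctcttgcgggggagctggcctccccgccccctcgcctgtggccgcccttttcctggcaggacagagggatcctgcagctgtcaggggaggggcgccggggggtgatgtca

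Reads on genes numbered 17943524 to 27721024 per library in the first intestinal set, 21757868 to 31052238 in the second and 20927014 to 32307629 in MEFs. Counts of 3 deleted genes followed the labels in the intestines: Casp1 was at 0 to 0.212 CPM (counts scaled to library size) in the Casp1-/- intestines and 42.5 to 124 in the others, Fadd at 0.658 to 1.01 against 25.4 to 50.4, and Ifnar1 at 33.2 to 37.9 against 76.1 to 103. Cflar followed its label only in part. It was at 45.6 to 50.5 CPM in the controls of the first set and 33.8 to 38.5 in D387A Cflar Mlkl. In D387A Cflar Mlkl Casp1, also Cflar-/-, it was at 42.3 to 47.5, overlapping the controls. It was at 51.0 to 53.2 in the Casp1-/- Ifnar1-/- group and 43.8 to 59.4 in the Casp1-/- Fadd-/- group, both Cflar-/-. Mlkl did not follow its label. It was at 10.9 to 13.9 CPM in the Casp8 D387A/D387A intestines, the only group with intact Mlkl. In the Mlkl-/- controls of the first set it was at 4.78 to 5.35. It was at 22.2 to 26.9 in D387A Cflar Mlkl and spread from 6.27 to 46.0 in D387A Cflar Mlkl Casp1. The Casp1-/- Ifnar1-/- group had 45.8 to 55.8 and the Casp1-/- Fadd-/- group 55.3 to 62.5. Since the Cflar and Mlkl deletions remove part of a gene, neither gene's count checks the labels. Some libraries stood apart from the others of their group: by a chi-square per gene of 75.5 and 77.2 against 14.3 for D387A Cflar Mlkl Casp1 replicate 3, of 37.2 and 32.6 against 5.91 for replicate 1 of the Casp1-/- Ifnar1-/- group, and of 72.7 and 71.9 against 26.6 for C362A Cflar Mlkl replicate 3. Of the skeletal muscle markers, 5 of 9, the muscle regulator Myog among them, were under 1 RPKM (reads scaled to gene length and library size) in every intestine. Of the 6 cardiac markers, Myh6 and Nppa were under 1 RPKM. The myosin light chain Myl7, however, reached 230.2 and the cardiac actin Actc1 49.8. Gut epithelium was plain in all 30 intestines and near absent in MEFs, where Fabp2 and Alpi had 0 reads. Stomach markers varied between libraries of one group, summing to 1.91 to 115 RPKM in the 3 controls of the first set. Stomach has smooth muscle too, and the part of such tissue in the values below was not tested.

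In the control intestines of the first set, the actins and Tagln stood highest. Actg2 was at 993, 1035 and 1044 RPKM in the 3 embryos, Acta2 at 809, 810.4 and 869, and Tagln at 446, 493 and 519.6. These are levels per length, scaled within each set of libraries. Myh11 (145 ± 11 RPKM, SD, n = 3), Des (137 ± 2.03) and Cnn1 (132 ± 5.95) followed with overlapping values, and then Smtn (27.3 ± 1.00), Lmod1 (10.9 ± 0.286), Synm (8.74 ± 0.673) and the coactivator Myocd (3.89 ± 0.558). The order was alike in the second set's controls, but the embryos differed more: Actg2 was at 839, 729.7 and 462 RPKM and Acta2 at 614, 519.6 and 337. Replicate 3 was the lowest of these controls for all 10 genes. Sets were scaled separately, so a difference in level between them was not tested. MEFs had another order. Acta2 led there at 1607, 1680 and 2560.2 RPKM in the Mlkl-/- cultures and Tagln followed at 729.7, 733 and 1026, whereas the enteric actin Actg2 was at 149, 130.1 and 244. Des (21.7 ± 4.04 RPKM), Myh11 (11.8 ± 6.07), Synm (2.14 ± 0.874) and Myocd (0.896 ± 0.266) were low in these cultures.

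**Figure D1:**
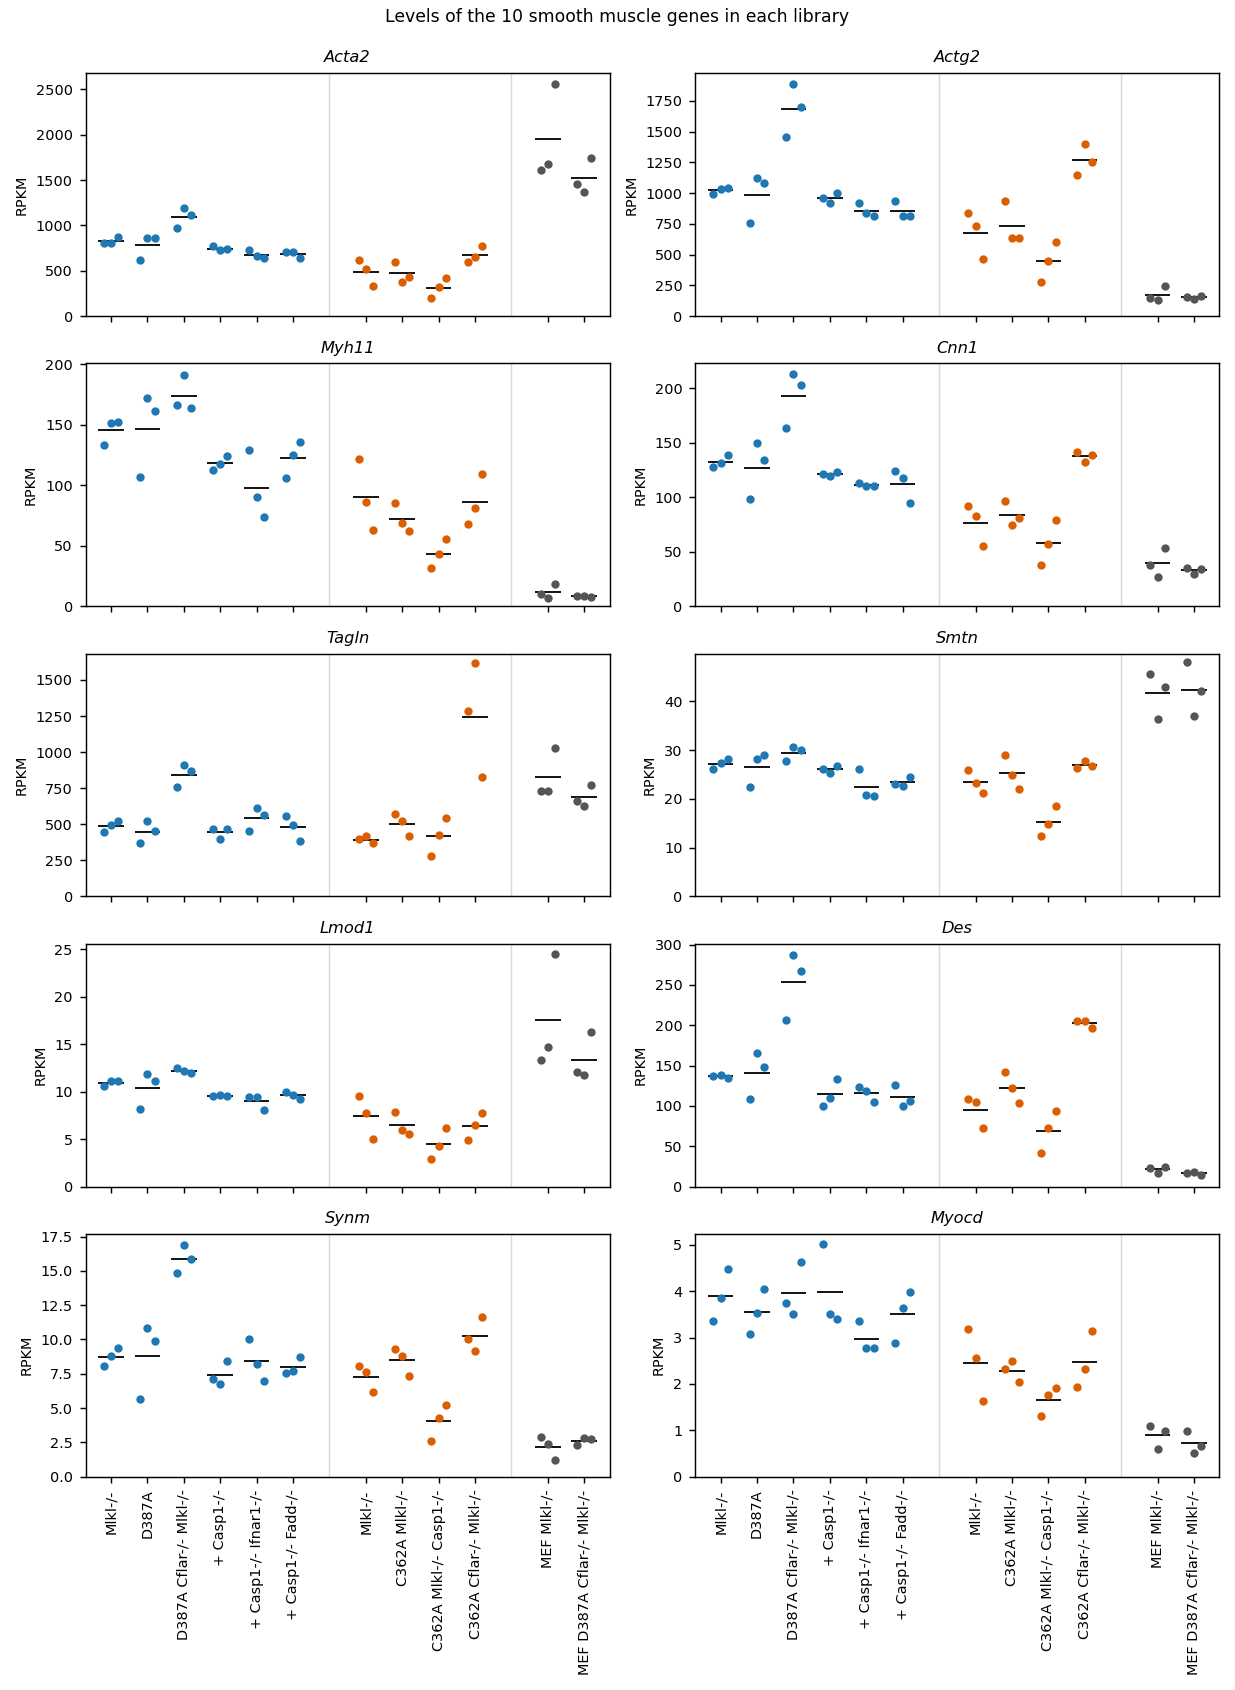
Level of each smooth muscle gene in RPKM (linear axis from 0) in each of the 36 libraries, by genotype; points are libraries and bars are group means. Blue is the D387A set and orange the C362A set of E18.5 intestines, grey the MEFs. Sets were scaled separately. Within the D387A set, Actg2, Des and Synm stand highest in D387A Cflar Mlkl intestines.

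In Casp8 D387A/D387A intestines, which keep Cflar and Mlkl, none of the 10 genes passed edgeR's quasi-likelihood test at an adjusted p under 0.05, where 0.00545% of all genes did. Their log2 fold changes against Mlkl-/- ran from -0.13 to 0.04, 0 of 10 had an unadjusted p under 0.05, and limma-voom and DESeq2 called 0 as well. The embryos themselves spread: Actg2 was at 754, 1126 and 1081 RPKM and Des at 108, 165 and 148. Replicate 1 was the lowest of the 3 for all 10 genes.

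In D387A Cflar Mlkl intestines 6 of the 10 genes rose against Mlkl-/- and none fell, where 29.9% of all 18360 genes tested rose and 29.5% fell. These were both actins, the actin-binding Cnn1 and Tagln, and both intermediate filament genes. The enteric actin Actg2 was at 1457, 1886 and 1699 RPKM, all above the controls' highest of 1044, and its log2 fold change was 0.71 ± 0.13 (SE, adjusted p = 0.000148). Acta2 was at 968, 1195 and 1111 RPKM. This also lay above every control, by a smaller step of 0.40 ± 0.12 on the log2 scale (adjusted p = 0.00787). Tagln rose from 446 to 519.6 RPKM in controls to 755, 912 and 866 (log2 fold change 0.80 ± 0.15, adjusted p = 0.000206). Cnn1 stood at 163, 213 and 203 RPKM against 127 to 139 (0.54 ± 0.13, adjusted p = 0.00204). The desmin scaffold moved furthest. Des was at 206, 288 and 268 RPKM against 135 to 139 (0.89 ± 0.15, adjusted p = 8.73e-05), and its partner Synm at 14.8, 16.9 and 15.9 against 8.05 to 9.39 (0.86 ± 0.18, adjusted p = 0.000412). None of the 6 changes exceeded 2-fold, the size the study's own call rule asks for, where 9.40% of all genes rose beyond it.

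The myosin gene, Lmod1, Smtn and the coactivator did not pass the test. Myh11 was at 166, 192 and 164 RPKM against 133 to 152, so that the groups did not overlap. Its log2 fold change of 0.26, however, had a nominal 95% interval of -0.10 to 0.61 (adjusted p = 0.231). Intervals here use the normal curve and are narrower than the test implies. Lmod1 was at 12.5, 12.2 and 11.9 RPKM against 10.6 to 11.1 (log2 fold change 0.16, interval -0.04 to 0.36). Smtn was at 27.7, 30.6 and 30.0 against 26.2 to 28.2 (0.11, interval -0.08 to 0.30). Myocd, the coactivator of this programme, overlapped its controls at 3.75, 3.51 and 4.63 RPKM (0.03, interval -0.30 to 0.36). The median over the 10 genes was 0.47 and that over all genes tested -0.01. In bulk tissue, more cells of a type and more RNA per cell cannot be told apart.

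**Figure D2:**
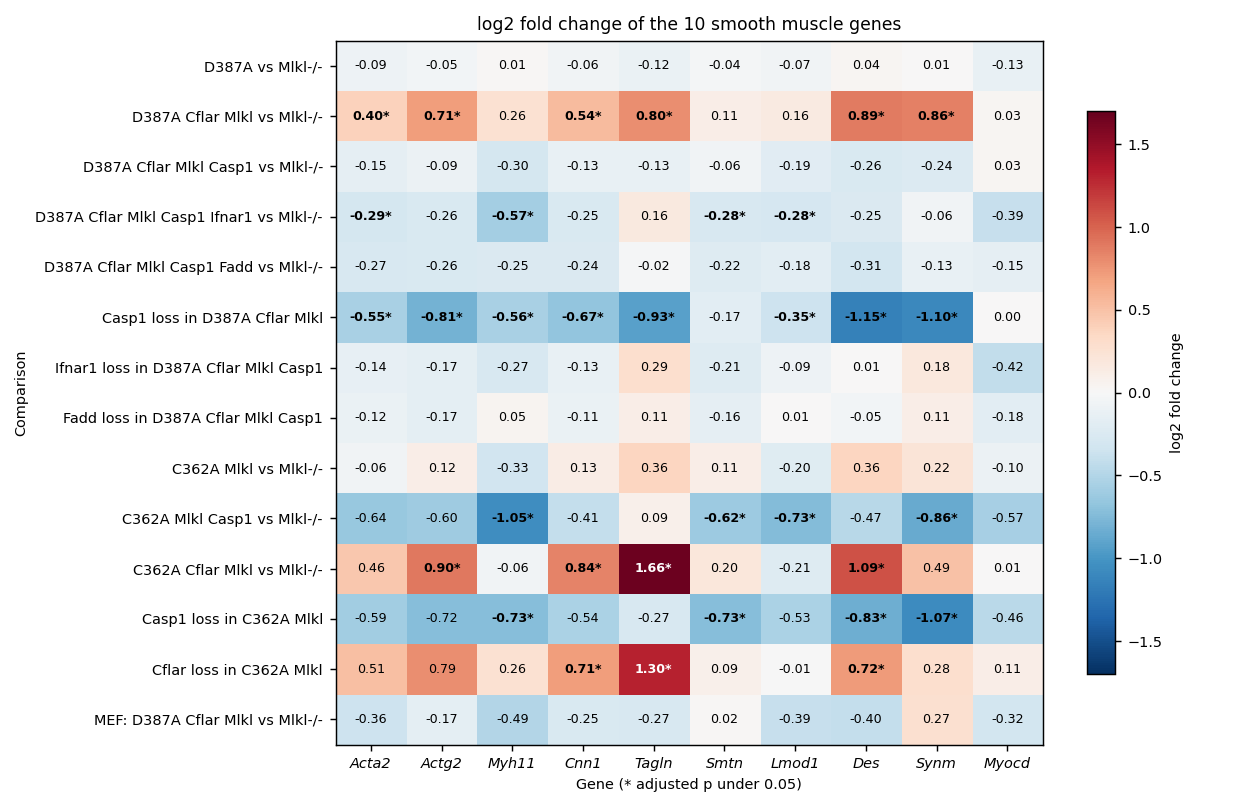
Fitted log2 fold change of each smooth muscle gene (columns) in each of the 14 comparisons (rows), red for higher and blue for lower, with an asterisk and bold type where the adjusted p was under 0.05. The row of D387A Cflar Mlkl against Mlkl-/- reaches 0.89 for Des, and the row of Casp1 loss in that genotype reaches -1.15.

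Other genes of the muscle programme moved both ways in the same intestines. Of 28 further genes of the contractile apparatus 12 rose and 3 fell (median log2 fold change 0.08), with caldesmon, from Cald1, at 0.95 and the Z-disc gene Ldb3 at -2.26. Of 13 regulators 2 rose and 3 fell: Srf itself rose by 0.62 (adjusted p = 3.67e-06) and Klf4, a repressor of the contractile state, by 0.78, while Gata6, a factor of visceral smooth muscle and endoderm, fell by 1.42. The SRF coactivators Mrtfa (0.08) and Mrtfb (0.02) did not pass. Hedgehog and BMP signals gave 3 higher and 6 lower of 15, with Bmp2 at 1.35 and the hedgehog-binding Hhip at -0.84. Receptors for contractile agonists gave 3 higher and 1 lower of 9, with the endothelin receptor Ednra at 0.76 and the purine receptor P2rx1 at -1.43. Paralogs of the 10 genes, such as the actins and myosins of other cells, gave 9 higher and 2 lower of 14.

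Markers of neighbouring cells moved as well. Vascular mural cell markers rose for 7 of 8 (median 0.71, Higd1b at 1.57 the highest, from 11 to 16 reads a library against 2 to 6), and their summed level went from 90.3 to 98.1 RPKM in controls to 151 to 167. Fibroblast markers rose for 5 of 8 and fell for 1, with a sum of 755 to 839 RPKM in controls and 975 to 1034 in D387A Cflar Mlkl. Of the 9 epithelial markers 4 rose and 3 fell (median -0.17), with the enterocyte genes Fabp2 at -5.87 and Alpi at -3.43 and Krt8 at 1.08 on the log2 scale. Their sum was 8342 to 8737 RPKM in controls, most of it from Fabp2 (6414 to 6575), and 1744 to 1928 in D387A Cflar Mlkl (Fabp2 81.4 to 133). Mesothelial markers gave 3 higher and 1 lower of 5, neurons and glia 0 and 2 of 8, interstitial cells of Cajal 1 and 1 of 4, stomach 0 and 3 of 6, skeletal muscle 3 and 4 of 7, and cardiac muscle 2 and 1 of 4. The cardiac sum was 61.5 to 70.4 RPKM in controls and 111 to 150.2 in D387A Cflar Mlkl, with Myl7 at 2.60 on the log2 scale. The part that a changed share of any of these cells has in the 6 smooth muscle genes was not tested.

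**Figure D3:**
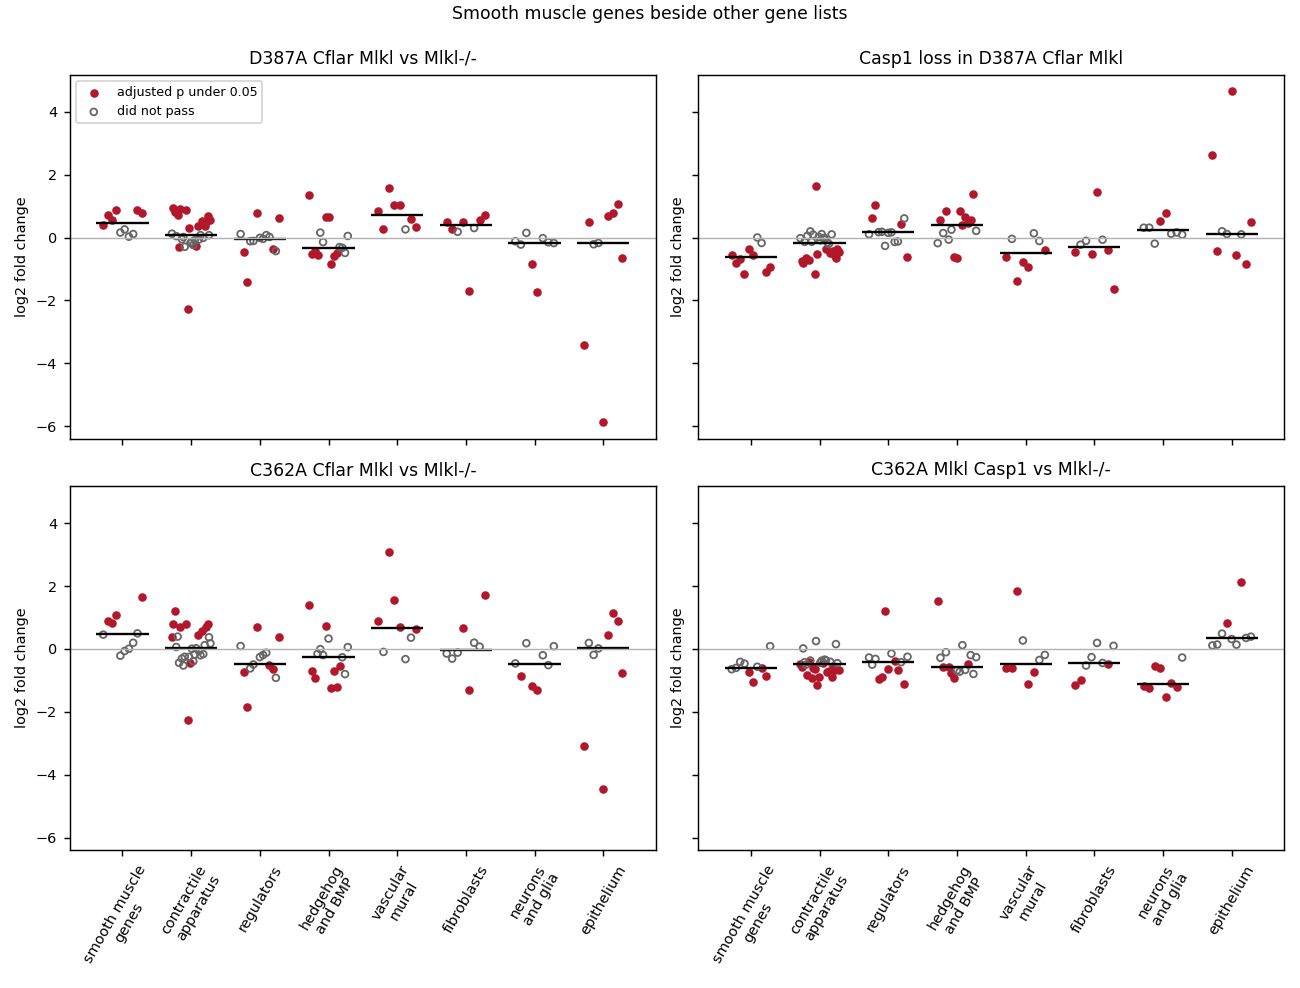
log2 fold change of each gene of 8 lists in 4 comparisons; filled red points passed an adjusted p of 0.05, open points did not, and bars are list medians. In D387A Cflar Mlkl against Mlkl-/- the median is 0.47 for the smooth muscle genes, 0.08 for the further contractile genes and 0.71 for the mural markers.

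Loss of Casp1 in the D387A Cflar Mlkl genotype lowered 8 of the 10 genes, where 22.5% of all genes fell and 24.5% rose. Des was at 99.8, 110.4 and 134 RPKM and fell by 1.15 ± 0.16 on the log2 scale (adjusted p = 1.26e-05). Synm was at 7.09, 6.79 and 8.40 RPKM and fell by 1.10 ± 0.18 (adjusted p = 7.47e-05). These 2 exceeded a 2-fold change, as 4.51% of all genes did in this direction. Tagln (468, 395 and 469 RPKM) fell by 0.93 and Actg2 (963, 917 and 999) by 0.81, each below every D387A Cflar Mlkl embryo. Cnn1 fell by 0.67 and Acta2, at 776, 724 and 736 RPKM, by 0.55. Myh11, which had not passed against the controls, fell by 0.56 here (adjusted p = 0.0177) to 113, 118 and 124 RPKM, and Lmod1 fell by 0.35 to 9.56, 9.64 and 9.5. Smtn (-0.17, adjusted p = 0.161) and Myocd (0.00, adjusted p = 0.994) did not pass. The median over the 10 was -0.61 and over all genes 0.03. This comparison shares its D387A Cflar Mlkl libraries with the one before, so the reversed signs are not independent of each other.

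Other lists followed in part. The further contractile genes gave 1 higher and 13 lower of 28, with the potassium channel subunit Kcnmb1 at -1.15 and Ldb3 at 1.64, and Srf fell by 0.60 while Gata6 rose by 1.04. Hedgehog and BMP signals gave 8 higher and 2 lower of 15, with Shh at 1.37. Mural markers fell for 5 of 8 (sum 91.1 to 119 RPKM) and fibroblast markers fell for 4 and rose for 1 of 8, while epithelial markers rose for 3 and fell for 3 of 9 (median 0.11, Fabp2 at 4.65 and Krt8 at -0.84), with a sum of 4120 to 5204 RPKM. Against Mlkl-/- embryos, 0 of the 10 smooth muscle genes passed in D387A Cflar Mlkl Casp1 intestines by edgeR, limma-voom or DESeq2, where 21.4% of all genes did, and 0 had an unadjusted p under 0.05. Their log2 fold changes ran from -0.30 for Myh11 to 0.03 for Myocd. Replicate 3 of this group had the highest Mlkl count of the 3, 46.0 against as low as 6.27 CPM, and the number of smooth muscle genes that fell on Casp1 loss was 7 or 8 with any single library left out.

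Further loss of Ifnar1 or Fadd gave no gene past the test. Against the D387A Cflar Mlkl Casp1 parent genotype, 0 of 10 passed on Ifnar1 loss (log2 fold changes -0.42 to 0.29, 2 with an unadjusted p under 0.05) and 0 of 10 on Fadd loss (-0.18 to 0.11, 0 with an unadjusted p under 0.05), where 30.6% and 17.9% of all genes passed; limma-voom and DESeq2 gave 0 for both. The count for Ifnar1 loss was 3 without Casp1-/- Ifnar1-/- replicate 1 and 1 without D387A Cflar Mlkl Casp1 replicate 3, the libraries that stood apart. Against Mlkl-/- controls, 4 of the 10 fell in the Casp1-/- Ifnar1-/- intestines, where 23.6% of all genes fell. Myh11 was at 129, 90.1 and 74.2 RPKM against 133 to 152 (log2 fold change -0.57 ± 0.18, adjusted p = 0.0152). Acta2 (727, 663 and 642 RPKM, -0.29), Lmod1 (9.43, 9.40 and 8.11, -0.28) and Smtn (26.1, 20.7 and 20.7, -0.28) fell by smaller steps with adjusted p of 0.0492, 0.0285 and 0.0291. Tagln was at 450.4, 614 and 566 RPKM, 1 within and 2 above its controls' 446 to 519.6 (0.16). This count of 4 rested on single libraries: it was 1 without control replicate 2 or 3 or Ifnar1-/- replicate 2, and 0 without Ifnar1-/- replicate 3, and it was 5 without Ifnar1-/- replicate 1. The further contractile genes gave 16 lower and 1 higher of 28 in this group, and markers of enteric neurons and glia fell for 6 of 8 with a sum of 72.2 to 73.5 RPKM against 97.9 to 110 in controls. Hedgehog and BMP signals gave 8 lower and 1 higher of 15, fibroblast markers 3 lower of 8 and stomach markers 4 lower of 6. Epithelial markers gave 5 higher and 1 lower of 9 (median 0.38), their sum being 4634 to 6058 RPKM against 8342 to 8737. The part of these changes in the 4 lower genes was not tested. In the Casp1-/- Fadd-/- intestines 0 of 10 passed against Mlkl-/-, where 18.4% of all genes did; 2 had an unadjusted p under 0.05, all 10 log2 fold changes lay between -0.31 and -0.02, and limma-voom and DESeq2 gave 0.

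In the second set, C362A Mlkl intestines had 0 of the 10 genes past the test against Mlkl-/-, where 42.1% of 19408 genes passed. Log2 fold changes ran from -0.33 for Myh11 to 0.36 for Tagln and Des, 0 had an unadjusted p under 0.05, and limma-voom and DESeq2 gave 0. Tagln was at 572, 525 and 416 RPKM against 367 to 416 in the controls. In C362A Cflar Mlkl intestines, which differ from Mlkl-/- in both Casp8 and Cflar, 4 of the 10 rose against Mlkl-/-, where 27.9% of all genes rose. Tagln stood at 1283, 1617 and 830.3 RPKM, with a log2 fold change of 1.66 ± 0.26 (adjusted p = 0.000107). Des was at 205, 205 and 197 RPKM against 72.4 to 109 (1.09 ± 0.24, adjusted p = 0.00166). Both exceeded 2-fold, as 13.4% of all genes did upwards. Actg2 (1147, 1399 and 1249 RPKM against 462 to 839) rose by 0.90 ± 0.28 and Cnn1 (141, 132 and 139 against 55.7 to 91.7) by 0.84 ± 0.23, with adjusted p of 0.0139 and 0.00672. Synm (0.49, adjusted p = 0.0503) and Acta2 (0.46, adjusted p = 0.179) did not pass. Myh11 (-0.06), Lmod1 (-0.21), Smtn (0.20) and Myocd (0.01) did not pass either.

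Against the C362A Mlkl parent genotype, Cflar loss raised 3 of the 10: Tagln by 1.3 ± 0.26 (adjusted p = 0.00347), Des by 0.72 (adjusted p = 0.0482) and Cnn1 by 0.71 (adjusted p = 0.0417), where 6.95% of all genes rose and 1.45% rose beyond 2-fold. Actg2 (0.79, adjusted p = 0.0623) did not pass, and the other 6 ran from -0.01 for Lmod1 to 0.51 for Acta2. The count was 1 without any 1 of the C362A Mlkl libraries or C362A Cflar Mlkl replicate 1 or 2, and 1 with the replicate number as a block. The gene lists that follow are for C362A Cflar Mlkl against Mlkl-/-, not against C362A Mlkl. In C362A Mlkl the sums were 81.6 to 108 RPKM for mural, 66.5 to 91.0 for cardiac and 3743 to 4713 for epithelial markers. Against Mlkl-/-, mural markers rose for 5 of 8, their sum going from 77.2 to 96.5 RPKM to 131 to 154. Higd1b was at 3.08, from 13 to 42 reads a library against 3. Cardiac markers rose for 2 and fell for 1 of 4 tested (median 0.06), with Myl7 at 3.36. Their sum was 107 to 268 RPKM against 39.4 to 52.6. Epithelial markers rose for 3 and fell for 3 of 9 (median 0.02, Krt20 at 1.14), and their sum was 1658 to 2564 RPKM against 6651 to 11090, where Fabp2 alone was 208 to 505 against 4541 to 8982 (-4.44). Of the further contractile genes 9 rose and 2 fell, with Csrp1, an actin-bundling partner, at 1.2 and Ldb3 at -2.26, and Srf rose by 0.38 while Gata6 fell by 1.86. The response to the Cflar-deficient genotype could be compared between the C362A and D387A sets, whose Cflar deletions differ, by testing the difference itself: 0 of the 10 genes passed, where 0.127% of all genes did. The largest difference was for Tagln, at 0.88 (adjusted p = 0.114), 1 of 10 had an unadjusted p under 0.05, and limma-voom and DESeq2 gave 0.

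C362A Mlkl Casp1 intestines had 4 of the 10 genes lower than Mlkl-/-, where 17.1% of all genes fell. Myh11 was at 31.2, 43.3 and 55.7 RPKM, all below the controls' 62.7 to 122, and fell by 1.05 ± 0.26 (adjusted p = 0.00667), the only one of the 10 beyond 2-fold, where 3.73% of all genes were. Synm (2.57, 4.31 and 5.19 RPKM against 6.14 to 8.10) fell by 0.86 ± 0.20 and Smtn (12.3, 14.9 and 18.6 against 21.2 to 26.0) by 0.62 ± 0.14, with adjusted p of 0.00498 and 0.00458. Lmod1 fell by 0.73 ± 0.27 (adjusted p = 0.0468). Acta2, at 203, 318 and 419.7 RPKM, and Actg2, at 281, 449 and 606, overlapped their controls (adjusted p of 0.081 and 0.104), and Tagln (0.09), Cnn1 (-0.41), Des (-0.47) and Myocd (-0.57, adjusted p = 0.0795) did not pass. The embryos of this group were far apart, replicate 1 being the lowest and replicate 3 the highest for all 10 genes. The count of 4 became 8 without replicate 3 of this group or replicate 3 of the controls, and the 1 beyond 2-fold became 0 without control replicate 1 or replicate 1 of this group and 3 without replicate 3 of this group.

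Against C362A Mlkl, Casp1 loss lowered Synm by 1.07 ± 0.20 (adjusted p = 0.00112), Des by 0.83 (adjusted p = 0.0165), Smtn by 0.73 ± 0.14 (adjusted p = 0.00161) and Myh11 by 0.73 (adjusted p = 0.0442), where 15.5% of all genes fell and 5.72% fell beyond 2-fold. The other 6 did not pass, from -0.72 for Actg2 to -0.27 for Tagln. This count of 4 was 2 without C362A Mlkl replicate 1 and 8 without C362A Mlkl Casp1 replicate 3. Other contractile genes gave 14 lower and 1 higher of 28, with Cald1 at -1.04 and Ldb3 at 1.16, and Srf fell by 0.47 (adjusted p = 0.0136). In the same contrast mural markers fell for 4 of 8 (sum 81.6 to 108 RPKM in C362A Mlkl and 51.1 to 70.9 with Casp1 also lost), contraction receptors for 4 of 9, interstitial cells of Cajal for 3 of 4, fibroblasts for 3 of 8 with 1 higher, and neurons and glia for 2 of 8. Epithelial markers rose for 2 and fell for 2 of 9, their sum going from 3743 to 4713 RPKM to 10112 to 12611. Fabp2 weighs most in this sum: it spanned 208 to 9545 RPKM over the second set, where the next highest marker, Epcam, reached 1192. Against Mlkl-/-, 16 of those 28 fell with Lpp, a focal adhesion gene, at -1.13, and of the regulators Nkx3-2 was at -1.12, Mrtfa at -0.39, Mrtfb at -0.66, Srf at -0.25 and Klf4 at 1.21. Enteric neuron and glia markers fell for 7 of 8 (median -1.13, sum 33.9 to 59.5 RPKM against 59.1 to 87.2) and mural markers for 4 of 8 (Ndufa4l2 lowest at -1.10), while the mural gene Higd1b rose by 1.85 from 8 to 12 reads a library against 3. Epithelial markers rose for 2 of 9 and fell for 0 (Krt20 at 2.14), with a sum of 10112 to 12611 RPKM. The part of these neighbouring cells in the lower muscle genes was not tested. The effect of Casp1 loss differed between the C362A and D387A backgrounds for 1 of the 10 genes, Smtn, by -0.58 ± 0.17 (adjusted p = 0.019). Of all genes, 10.9% passed with a lower value in C362A, so that the share of the 10 was near that of all genes. The backgrounds also differ in Cflar, which the C362A embryos of this contrast keep.

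In MEFs of the D387A Cflar Mlkl genotype none of the 10 genes passed against Mlkl-/- cultures by edgeR, limma-voom or DESeq2, where 0.11% of all 15465 genes did by edgeR, and 1 of 10, Des at -0.40 (adjusted p = 0.691), had an unadjusted p under 0.05. Acta2 was at 1458, 1366 and 1746 RPKM against 1607 to 2560.2, and Tagln at 661, 627 and 775 against 729.7 to 1026. The difference between the intestinal and the MEF response was tested itself and passed for 5 of the 10, all higher in intestine. Of all genes, 21.5% passed in that direction. It was 1.32 for Des (adjusted p = 0.000106) and 1.09 for Tagln (adjusted p = 0.00057). For the other actin-related genes it was 0.91 for Actg2, 0.82 for Cnn1 and 0.78 for Acta2, with adjusted p of 0.00535, 0.0124 and 0.00663. Myh11 had a difference of the same size (0.78) with a wider error and did not pass (adjusted p = 0.0914). Mural markers differed in the same direction for 4 of 8 and the further contractile genes for 11 of 28, with 1 of those 28 lower.

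**Figure D4:**
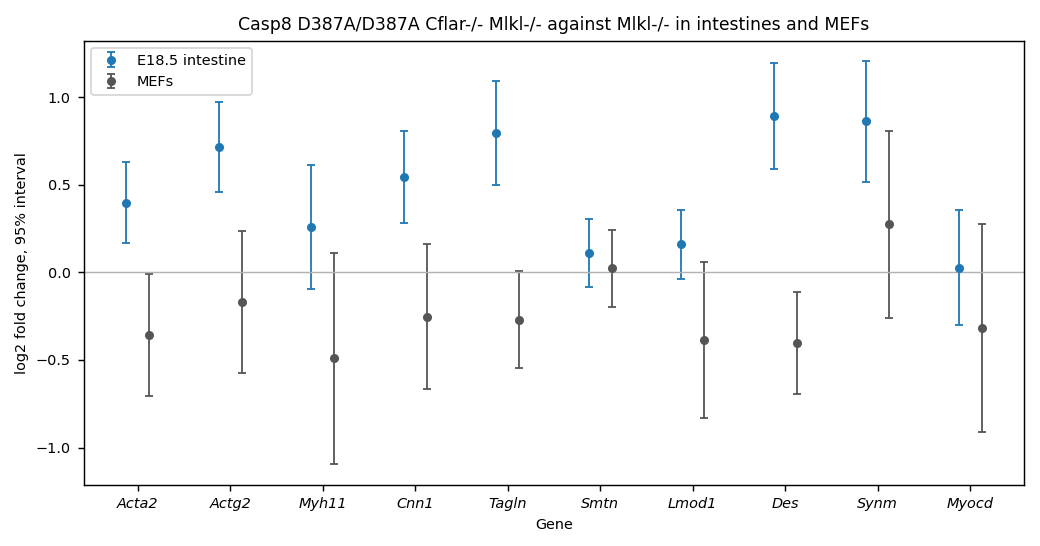
log2 fold change of D387A Cflar Mlkl against Mlkl-/- with its nominal 95% interval for each smooth muscle gene. E18.5 intestines are blue and MEFs grey, with 3 libraries a group. The intervals use the normal curve and are narrower than the test implies. That of Acta2 in MEFs (-0.70 to -0.008) leaves out 0, though its unadjusted p by edgeR's quasi-likelihood test was 0.0786. Intestinal values for Des (0.89) and Tagln (0.80) lie above 0 and those of MEFs (-0.40 and -0.27) below it.

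The 10 genes varied together to unequal degrees. Over the 30 intestines, with each library expressed relative to the controls of its set, Actg2 and Cnn1 had a Pearson correlation of 0.978 and Actg2 and Des of 0.965, while Tagln had 0.268 with Myh11, 0.217 with Lmod1 and 0.208 with Myocd, and Myh11 and Lmod1 had 0.907 with each other. These are descriptions over libraries that share genotypes and cell makeup. Levels of Actg2 relative to Acta2 also ranged by genotype, given here with no test. The ratio of Actg2 to Acta2 RPKM was 1.2 to 1.28 in controls of the first set, 1.5 to 1.58 in D387A Cflar Mlkl and 1.24 to 1.36 with Casp1 also lost, so the middle group stood apart from both. In the second set it was 1.37 to 1.40 in controls, 1.48 to 1.67 in C362A Mlkl, 1.38 to 1.44 in C362A Mlkl Casp1 and 1.62 to 2.14 in C362A Cflar Mlkl. MEFs had 0.0774 to 0.109. The ratio of Tagln to Myh11 was 3.26 to 3.42 in the first controls and 4.54 to 5.28 in D387A Cflar Mlkl, but it also spread from 3.49 to 7.63 in the Casp1-/- Ifnar1-/- and from 2.85 to 5.25 in the Casp1-/- Fadd-/- group. In the second set it was 3.24 to 5.87 in controls, 6.71 to 7.66 in C362A Mlkl, 9.0 to 9.87 in C362A Mlkl Casp1 and 7.61 to 19.9 in C362A Cflar Mlkl. All 3 mutant groups of the second set thus lay above their controls. The non-member genes whose pattern was most like the mean of the 10, among 15787 genes, were Dkk3 (0.940), Kcnmb1 (0.937), Vim (0.931), Actc1 (0.930) and Sult4a1 (0.926).

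**Figure D5:**
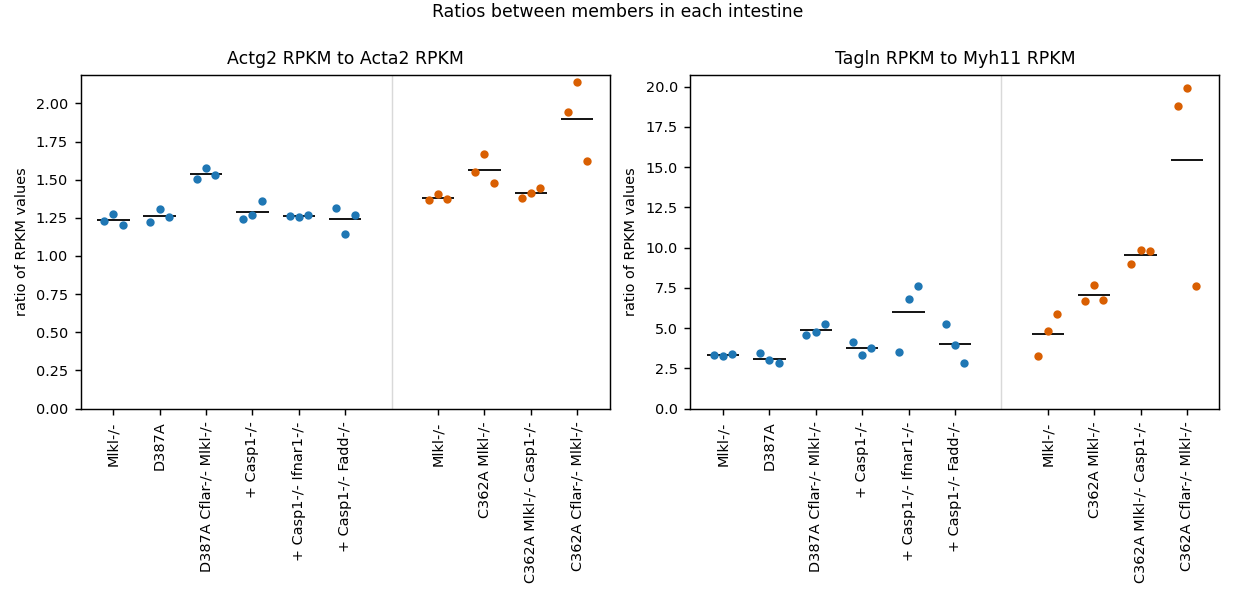
Ratio of Actg2 to Acta2 RPKM (left) and of Tagln to Myh11 RPKM (right) in each intestine, on linear axes from 0; points are embryos, bars are group means, blue is the D387A set and orange the C362A set. D387A Cflar Mlkl embryos lie at 1.5 to 1.58 in the left panel and their controls at 1.2 to 1.28.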

How the data were processed

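Per the labels and the study's methods, 50 bp single-end reads had been aligned by GSNAP to GRCm38 (mm10), and unique reads were kept. The deposited tables hold, for each library, the authors' read count per gene and an RPKM; the counter and annotation are not given in the sources used here. Tests used the deposited counts, and RPKM values in the text were recomputed from them, scaled by TMM within each set; gene lengths are the authors' width column, and their RPKM column served only to find the library total it implies (reads on genes were 75.6% to 88.6% of it). The 10 genes, gene lists and tests were chosen with earlier results of these data known.

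edgeR 4.0.16 (R 4.3.3) fitted each set whole, after filterByExpr (minimum count 10, total 15) and TMM, to 18360, 19408 and 15465 genes, with quasi-likelihood tests and Benjamini-Hochberg adjustment over all genes of a fit; all 10 genes were in every fit. "Rose" or "fell" means an adjusted p under 0.05, and the study's call rule adds a log2 fold change beyond 1. Differences between responses were contrasts in fits of 19643 genes (30 intestines) and 18862 genes (24 libraries). Alternatives used limma 3.58.1 (voom), DESeq2 1.42.0, other scalings, filters, sample choices, a replicate block and each library left out. The edgeR step was tested on simulated data with 200 genes changed. No library pair differed by less than sampling noise (chi-square per gene 5.34 to 77.2 over 36 pairs).

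Groups came from the labels and titles. Titles name the first set's controls only as controls, and the mutant MEFs by Mlkl and FLIP without Casp8. The full genotypes of these groups follow the study's description. Same-numbered replicates deviated together (every correlation over 0.1) only for Casp8 D387A/D387A against Mlkl-/- (0.145, 0.238 and 0.221) and for MEFs (0.308, 0.351 and 0.208). These correlations were not set against those of differently numbered replicates, so they do not establish pairing. The replicate block changed neither count. Titles carry numbers whose meaning the labels do not give and which go with genotype, so number and genotype cannot be told apart. All 10 genes were tested in every comparison. A rule names up to 4 genes of each, the highest and lowest past the test and factors known to act on Myocd or SRF; many lists are given here by counts alone, 1 gene is not reported here, and the 5 most alike genes were ranked by Pearson correlation. Figures were drawn with Python 3.11.15, pandas 2.3.3 and matplotlib 3.10.9.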

Additional observations from a re-analysis of the deposited data

Results flagged for a closer look

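The response to the D387A Cflar Mlkl genotype differed between intestine and MEFs, by an interaction test, for Acta2 (0.78 on the log2 scale), Actg2 (0.91), Tagln (1.09), Cnn1 (0.82) and Des (1.32), each with a higher value in intestine. The response to Casp1 loss differed between the C362A and D387A backgrounds for Smtn (-0.58), 1 of the 10 genes, where 10.9% of all genes passed in this direction, a share near that of the 10. Gm11946, antisense to Smtn, had 0.0279% to 21.8% as many reads as Smtn, and its part in this difference was not tested. Single values far from the rest of a group were not tested for in groups of 3.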

How the results depend on the processing

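Of 570 values of single genes under the alternatives, 519 kept their direction and side of the threshold, 51 fell short of it and 0 reversed. Counts of the 10 genes past the adjusted p moved as follows. With library totals in place of TMM, which moves the median of all genes by 0.22 for D387A Cflar Mlkl, 0.28 for C362A Cflar Mlkl and -0.27 for Casp1 loss in C362A Mlkl, they were 1 for the Casp1-/- Ifnar1-/- intestines against Mlkl-/- (4 with TMM), 2 for Ifnar1 loss, 2 for Fadd loss, 7 for C362A Mlkl Casp1, 7 for C362A Cflar Mlkl and 9 for Casp1 loss in C362A Mlkl. With no filter they were 1 for Ifnar1 loss, 7 for C362A Mlkl Casp1 and 7 for Casp1 loss in C362A Mlkl. Fitting only the compared groups gave 7 for the Casp1-/- Ifnar1-/- intestines, 1 for the Casp1-/- Fadd-/- intestines and 7 for Casp1 loss in C362A Mlkl. DESeq2 gave 7 for C362A Mlkl Casp1, and limma-voom gave 1 for Cflar loss in C362A Mlkl (3 by edgeR). The cause of these moves was not tested. Numbers of genes beyond 2-fold under library totals were 3 for D387A Cflar Mlkl, 4 for C362A Cflar Mlkl and 4 for Casp1 loss in C362A Mlkl; with no fold threshold they were 6 for D387A Cflar Mlkl, 4 for the Casp1-/- Ifnar1-/- intestines, 8 for Casp1 loss in D387A Cflar Mlkl, 4 for C362A Mlkl Casp1, 4 for C362A Cflar Mlkl, 4 for Casp1 loss in C362A Mlkl and 3 for Cflar loss in C362A Mlkl.

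With the replicate block the count was 1 for Cflar loss in C362A Mlkl, and no other count of the 14 comparisons moved by more than 1.5 times; the 3 differences between responses were not fitted with the block. Same-numbered samples are known to share only a number, also in the 2 comparisons where they deviated together.

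Leaving out each library in turn gave these ranges of genes past the adjusted p: 6 to 6 for D387A Cflar Mlkl, 7 to 8 for Casp1 loss in it, 0 to 5 for the Casp1-/- Ifnar1-/- intestines, 0 to 3 for Ifnar1 loss (1 without the Casp1-/- replicate 3, 3 without Casp1-/- Ifnar1-/- replicate 1), 3 to 8 for C362A Mlkl Casp1, 4 to 5 for C362A Cflar Mlkl, 2 to 8 for Casp1 loss in C362A Mlkl and 1 to 2 for Cflar loss there. Beyond 2-fold they were 0 to 1 for D387A Cflar Mlkl (1 without its replicate 1), 2 to 3 for Casp1 loss in it, 0 to 3 for C362A Mlkl Casp1, 1 to 3 for C362A Cflar Mlkl (1 without control replicate 3), 0 to 3 for Casp1 loss in C362A Mlkl (0 without C362A Mlkl Casp1 replicate 1 and 3 without its replicate 3) and 1 to 1 for Cflar loss. With 3 libraries a group, a p that misses the threshold does not show equal levels.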
